A study of Mus musculus with 16 samples.

Results

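The elastic fibre genes described here are 10 genes chosen by symbol: Eln, Fbn1, Fbn2, Mfap2, Mfap4, Fbln1, Fbln2, Fbln5, Lox and Loxl1. They are 10 of the 57180 genes in the deposited count files, and all 10 were among the 17276 genes with enough counts to be tested. Their RNA was measured in the lungs of mouse fetuses at E14.5, a day of embryonic development, in 16 poly(A)-selected libraries that form 4 groups of 4. The groups were C57BL/6J (B6) control, B6 BMS493, A/J control and A/J BMS493. BMS493 inverse agonizes the retinoic acid receptors, the nuclear receptors through which vitamin A acts. Dams of the treated groups received it by mouth at 3.75 µg per g per day from E9.5 to E14.5, and dams of the control groups received corn oil. Fetuses were male according to the series' design, and the series asks how the genetic background and a passing loss of vitamin A signalling before birth bear on airway hyperresponsiveness. Litters were not given in the labels, so the p-values below measure the spread between these libraries, which may include litter mates.

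An elastic fibre has a core of crosslinked elastin, laid down on a scaffold of fibrillin microfibrils. Fibrillin-1 and fibrillin-2 (Fbn1, Fbn2) polymerise into the microfibrils, and the microfibril-associated proteins Mfap2 and Mfap4 bind to them. Fibulins link tropoelastin, the soluble product of Eln, to the scaffold, and the copper-dependent amine oxidases Lox and Loxl1 crosslink it. In the lung these fibres give airways, vessels and later the alveolar walls their recoil.

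Gene counts ran from 15207539 to 24146224 per library, 71.7% to 76.9% of the counted fragments. Levels are given as CPM (gene counts scaled to 1e6 per library) with TMM scaling, a method that corrects for differences in library composition. A gene was called where the adjusted p of edgeR's quasi-likelihood test was under 0.05, over all 17276 genes. The treatment itself was visible in both strains: 4 of 4 retinoid response genes (Cyp26b1, Rarb, Dhrs3 and Lrat) were called lower under BMS493 in B6 and in A/J. Cyp26b1, which encodes a retinoic acid degrading enzyme, went from 18.2 ± 5.14 to 1.47 ± 0.667 CPM in B6 and from 19.9 ± 5.72 to 1.05 ± 0.276 CPM in A/J (mean ± SD, n = 4). The lung epithelial genes Sftpc and Nkx2-1 had counts in all 16 libraries. Some libraries stood apart from their own group. B6 BMS493 replicate 3 had 10095 CPM of Col1a1 and Col3a1 together, collagen genes that are 2 of the 7 mesenchyme markers, against 5012 to 5491 CPM in the rest of its group. Its other 5 mesenchyme markers summed to 705 CPM, near the 733.5 to 744 CPM of those libraries. The level of Sftpc ran from 179 to 867.5 CPM among the B6 BMS493 libraries. A/J control replicate 4 had the lowest Sftpc level of all libraries, 53.5 CPM.

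For levels per length, CPM were divided by the merged length of all annotated exons of a gene. The transcripts expressed may be shorter, so the order between genes depends on the annotation. By this measure Mfap4 led in B6 controls at 226 ± 4.36 CPM per kb. Mfap2 (169 ± 5.43), Eln (118 ± 1.0), Lox (103 ± 4.68), Fbln1 (84.9 ± 2.46), Fbn2 (78.5 ± 4.23) and Fbn1 (37.2 ± 2.45 CPM per kb) followed. Loxl1, Fbln5 and Fbln2 had the lowest values per length, at 16.6, 9.94 and 6.66 CPM per kb. In A/J controls Mfap2 stood first at 154 CPM per kb and Mfap4 second at 136 CPM per kb; these 2 differed by less than the sum of their SDs. In A/J controls Eln stood at 65.8 and Lox at 47.6 CPM per kb, with Fbn2 at 83.6 and Fbln1 at 69.7. Eln (SD 19.1) and Fbln1 (SD 5.4) differed by less than their SDs. Fibulin-5 and fibulin-2, the last 2 in both control groups, changed places between them, with 6.07 CPM per kb for Fbln5 and 7.79 for Fbln2 in A/J controls.

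**Figure D1:**
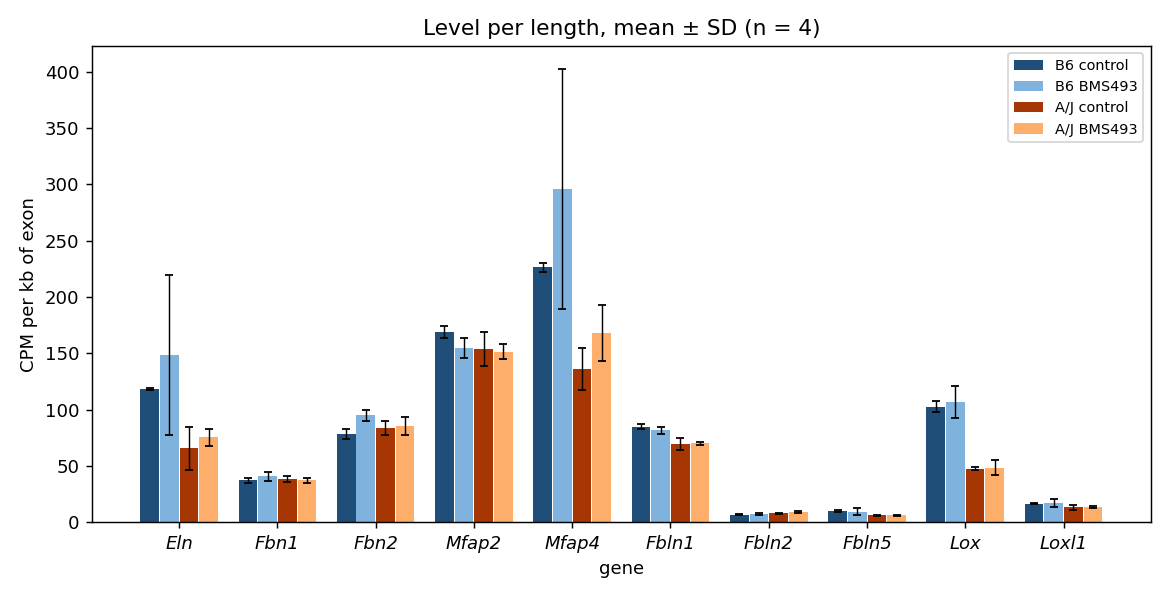
Mean level of each of the 10 genes per kb of exon (vertical axis, CPM per kb) in the 4 groups, with bars for the mean and lines for the SD of 4 libraries. Mfap4, Mfap2, Eln and Lox stand highest in B6 controls, and the Lox bars of both A/J groups are less than 50 CPM per kb.

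Several elastic fibre genes were lower in A/J than in B6 lungs, and Lox differed by the most. Among controls, 4 of the 10 genes were called and all 4 were lower in A/J: Lox, Fbln1, Fbln5 and Mfap4. The share of all tested genes called in that comparison was 16.9%, with 9.84% called lower and 7.04% higher. Under BMS493, 7 of the 10 genes were called, 6 of them lower in A/J (Lox, Fbln1, Mfap4, Loxl1, Fbln5 and Eln) and 1 higher (Fbln2), beside 20% of all genes (12% lower and 7.93% higher). The values of the groups did not overlap for 7 of the 10 genes among controls (24.3% of all genes) and for 3 of the 10 under BMS493 (19.5% of all genes). The median log2 difference, A/J minus B6, was -0.31 over the 10 genes in each treatment, against 0.0081 among controls and 0.0032 under BMS493 over all genes. In tissue RNA of this kind, fewer cells of a type and less RNA per cell cannot be told apart.

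A comparison of all 8 A/J with all 8 B6 libraries, the mean of both strain contrasts, was added after these values were seen. It called the same 7 genes as the comparison under BMS493, 6 lower in A/J and Fbln2 higher, where 31.7% of all genes were called (17.5% lower and 14.2% higher). Each of these 7 calls was also made in all 16 fits that left out 1 library. Fbn1, Fbn2 and Mfap2 were not called in any of the 3 strain comparisons.

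**Figure D2:**
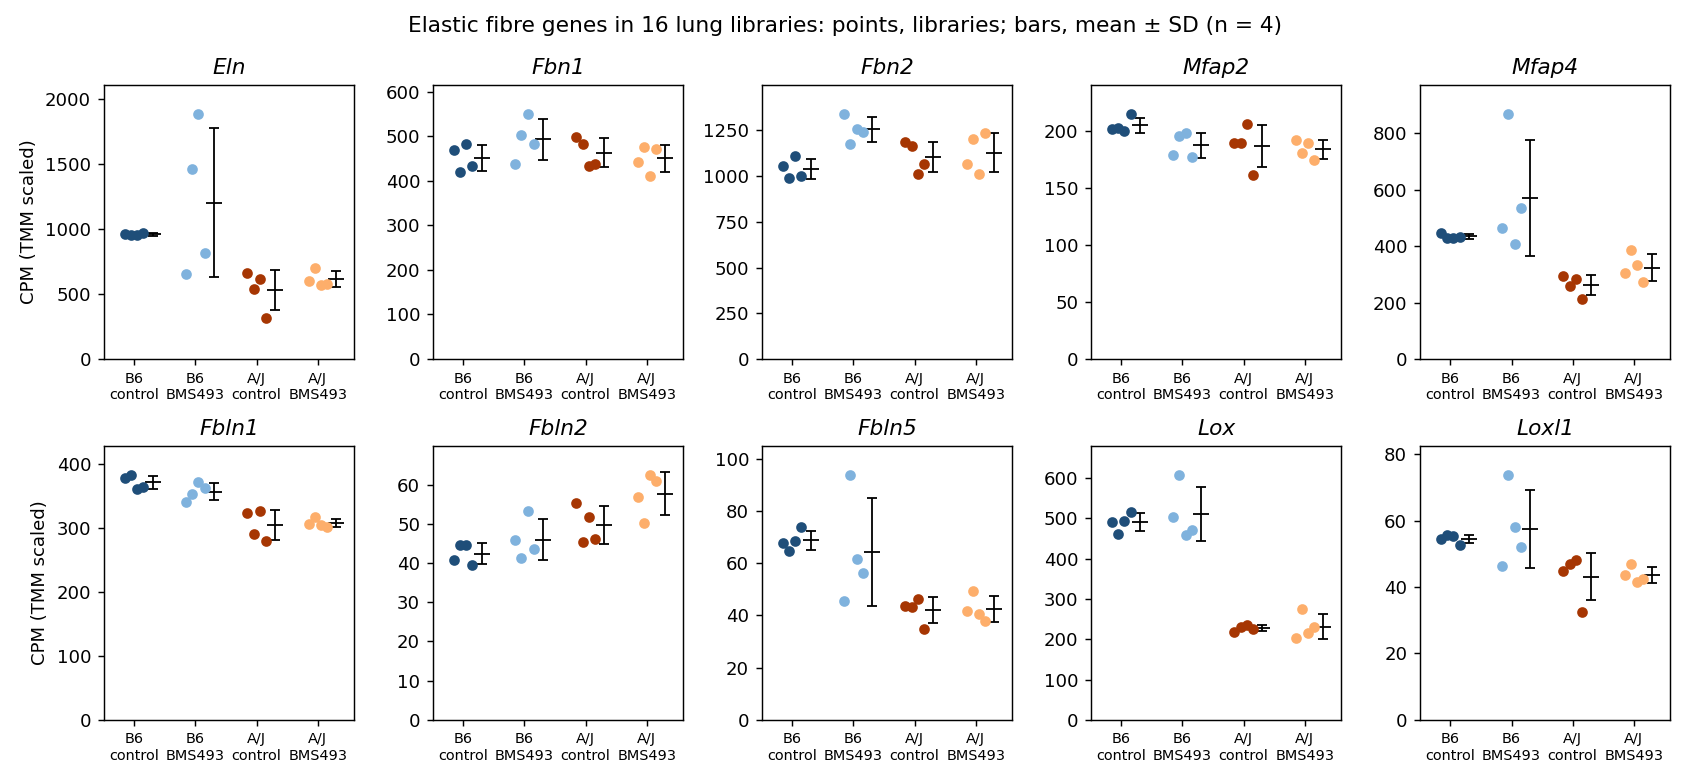
Level of each of the 10 genes in every library (vertical axes, CPM, 1 panel per gene), with 4 points per group and a line at the group mean. The Lox points of A/J lie between 204 and 274 CPM, all under the lowest B6 point at 458 CPM, while the Eln points of B6 BMS493 spread from 653 to 1883 CPM.

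Eln encodes tropoelastin, the elastin precursor. Its levels in B6 controls were 959.7, 951, 953 and 969 CPM in replicates 1 to 4, and in A/J controls 664, 539, 615 and 314 CPM. The B6 BMS493 libraries gave 653, 1464, 1883 and 814 CPM, and the A/J BMS493 libraries 601, 702, 569.6 and 576 CPM. The control groups of the strains did not overlap, the 4 B6 controls lay within 1.02-fold of each other, and the B6 BMS493 libraries spanned 2.88-fold. Among controls the A/J mean was 0.556 times that of B6 (log2 difference -0.85, SE 0.30), a difference that was not called (adjusted p = 0.0768). Under BMS493 the log2 difference was -0.97 (SE 0.30, adjusted p = 0.0388), with overlap of A/J replicate 2 and B6 replicate 1. Over both treatments Eln was 0.532 times as high in A/J (log2 difference -0.91, SE 0.21, adjusted p = 0.00557).

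The call of Eln under BMS493 depended on the processing and on single libraries. Of 10 alternative settings 7 made the call, and those without a filter, with a replicate block and with only the libraries compared did not. It was lost on leaving out any one of 11 libraries: B6 BMS493 replicate 3 (log2 difference -0.68, adjusted p = 0.114), B6 BMS493 replicate 2 (-0.87, 0.11), any A/J BMS493 library (adjusted p from 0.056 to 0.0948), any B6 control (from 0.0521 to 0.0527) or A/J control replicate 2 (0.0523). Among controls Eln was called (adjusted p = 0.0394 and 0.039) on leaving out B6 BMS493 replicate 1 or 3, with DESeq2 (0.0243) and with only the libraries compared (0.0411). The library with the lowest Eln level was A/J control replicate 4, and the log2 difference among controls without it was -0.66 (adjusted p = 0.186).

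The microfibril genes divided by member. Mfap4, whose glycoprotein binds elastin and fibrillin, stood at 447, 429.5, 429 and 433 CPM in B6 controls and at 292, 259.8, 282 and 212 CPM in A/J controls. Under BMS493 the values were 464, 867, 409 and 536 CPM in B6 and 305, 385, 332 and 271 CPM in A/J. The strains did not overlap in either treatment. The A/J mean was 0.602 times that of B6 among controls (log2 difference -0.73, SE 0.20, adjusted p = 0.0224) and 0.568 times under BMS493 (-0.82, SE 0.20, adjusted p = 0.0106). The call among controls was lost without B6 control replicate 1 (adjusted p = 0.0538), A/J control replicate 2 (0.052) or A/J control replicate 4 (0.0726, log2 difference -0.64). Under BMS493 the call held on leaving out any library, although the log2 difference was -0.54 without B6 BMS493 replicate 2, the library at 867 CPM.

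The fibrillins and Mfap2 were not called between the strains. Fbn1 averaged 451 ± 29.7 CPM in B6 controls and 463 ± 32.3 CPM in A/J controls, and over both treatments the 95% interval of the log2 difference ran from -0.15 to 0.055 (adjusted p = 0.504). That mean joined values of 0.037 among controls and -0.13 under BMS493 (adjusted p = 0.204). Fbn2, the fibrillin that predominates in fetal microfibrils, averaged 1037 ± 55.9 CPM in B6 controls and 1105 ± 81.0 CPM in A/J controls, with an interval over both treatments from -0.13 to 0.068 (adjusted p = 0.67). Its value was 0.092 among controls and -0.15 under BMS493, where the interval ran from -0.29 to -0.013 and the difference was not called (adjusted p = 0.12). Mfap2 averaged 204 ± 6.58 and 186 ± 18.6 CPM in the same groups, with an interval from -0.17 to 0.013 (adjusted p = 0.188). A difference of the size seen for Lox lay outside each of these 3 intervals.

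The 3 fibulins are matrix glycoproteins that bind tropoelastin, and they did not share a direction. Fibulin-5, which tethers tropoelastin and Loxl1 to the microfibril, had Fbln5 levels of 67.8, 64.6, 68.6 and 73.8 CPM in B6 controls and 43.6, 43.3, 46.2 and 34.8 CPM in A/J controls. Those groups did not overlap, and the A/J mean was 0.612 times that of B6 (log2 difference -0.71, SE 0.17, adjusted p = 0.00875). Under BMS493 the B6 libraries gave 45.6, 93.8, 61.7 and 56.2 CPM and the A/J libraries 41.75, 49.3, 40.65 and 38.0 CPM, with a log2 difference of -0.60 (SE 0.17, adjusted p = 0.02). The groups then overlapped through B6 replicate 1. That second call was lost without A/J BMS493 replicate 1 (adjusted p = 0.0513), 3 (0.0545) or 4 (0.0643), and the difference was -0.36 without B6 BMS493 replicate 2 (adjusted p = 0.019). The same call was lost without a filter and with only the libraries compared (adjusted p = 0.0708).

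Fbln1, which encodes a fibulin of elastic fibres and basement membranes, stood at 377, 382, 359.6 and 364 CPM in B6 controls and at 323, 289, 326 and 279 CPM in A/J controls. Under BMS493 the B6 libraries ran from 340.1 to 370.5 CPM and the A/J libraries from 301 to 316 CPM. The strains did not overlap in either treatment. The change was small, 0.821 times the B6 mean among controls (log2 difference -0.28, SE 0.056, adjusted p = 0.000675) and 0.861 times under BMS493 (-0.22, SE 0.056, adjusted p = 0.00714), and both calls held on leaving out any library.

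Fbln2, which encodes a fibulin found in vessel walls and developing mesenchyme, was the member that was higher in A/J. Its levels were 40.7, 44.7, 44.7 and 39.6 CPM in B6 controls and 55.5, 45.3, 51.7 and 46.1 CPM in A/J controls. Those groups did not overlap, but the difference was not called (log2 difference 0.23, SE 0.087, adjusted p = 0.0775). It was called with the second stranded column (0.32, adjusted p = 0.0171), with only the libraries compared (0.0289) and without B6 BMS493 replicate 3 (0.0442). Under BMS493 the levels were 45.8, 41.35, 53.3 and 43.65 CPM in B6 and 57.0, 50.2, 62.5 and 61.0 CPM in A/J, 1.26 times as high (log2 difference 0.33, SE 0.086, adjusted p = 0.00776). Over both treatments Fbln2 was 1.21 times as high in A/J (adjusted p = 0.00102).

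Promoter windows of the fibulins are shown because these genes moved in different directions between the strains and because the treatment acts on a receptor with a known DNA half-site. The windows are 300 bases of RefSeq on GRCm38.p6, 250 before and 50 after an annotated start, from the C57BL/6J reference and not from A/J. The table held windows for 5 of the 10 genes (Fbn1, Fbln1, Fbln2, Fbln5 and Mfap2), 8 windows in all, and none for Eln, Fbn2, Mfap4, Lox and Loxl1. Capitals mark a match on either strand to the retinoic acid receptor half-site AGGTCA or to the GC box GGGCGG, which read TGACCT and CCGCCC on the other strand. The Fbln2 window is chr6:91212514-91212813, plus strand, and the Fbln1 window that holds a match is chr15:85205758-85206057, plus strand. The Fbln5 windows are chr12:101819070-101819369 and chr12:101818435-101818734, both on the minus strand.
Fbln2: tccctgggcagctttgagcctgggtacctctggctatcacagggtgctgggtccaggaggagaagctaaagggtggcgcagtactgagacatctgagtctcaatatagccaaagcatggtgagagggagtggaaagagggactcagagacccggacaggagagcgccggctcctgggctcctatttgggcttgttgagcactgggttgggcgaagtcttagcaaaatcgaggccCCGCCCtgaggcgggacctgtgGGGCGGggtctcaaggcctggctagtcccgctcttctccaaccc
Fbln1 window 2: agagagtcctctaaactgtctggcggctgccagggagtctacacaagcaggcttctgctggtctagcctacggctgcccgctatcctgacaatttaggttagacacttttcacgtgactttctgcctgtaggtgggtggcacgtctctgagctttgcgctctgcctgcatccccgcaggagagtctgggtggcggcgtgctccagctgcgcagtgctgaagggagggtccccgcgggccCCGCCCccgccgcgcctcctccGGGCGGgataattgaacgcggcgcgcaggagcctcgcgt
Fbln5 window 1: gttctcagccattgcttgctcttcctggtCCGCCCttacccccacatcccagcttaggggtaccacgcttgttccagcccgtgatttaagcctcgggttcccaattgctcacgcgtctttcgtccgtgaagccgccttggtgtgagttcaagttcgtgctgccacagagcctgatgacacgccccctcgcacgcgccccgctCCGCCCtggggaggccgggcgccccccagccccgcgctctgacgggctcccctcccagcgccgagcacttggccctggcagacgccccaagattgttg
Fbln5 window 2: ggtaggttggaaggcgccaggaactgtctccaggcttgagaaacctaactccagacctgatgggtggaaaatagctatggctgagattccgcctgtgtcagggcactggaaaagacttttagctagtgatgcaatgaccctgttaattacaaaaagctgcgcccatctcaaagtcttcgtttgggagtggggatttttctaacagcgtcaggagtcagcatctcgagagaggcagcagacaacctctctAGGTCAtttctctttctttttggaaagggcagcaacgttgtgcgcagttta
Fbln2, higher in A/J, and Fbln1 and Fbln5, lower in A/J, each had a window with 2 GC boxes, and so did Mfap2, which was not called between the strains. The GC box was held by 35.7% of the 32851 RefSeq windows of that length. The half-site was in Fbln5 window 2 and in both overlapping Mfap2 windows, and 16.3% of all windows held it. The first Fbln1 window, which overlaps the second, held no match, and Fbn1 held 1 GC box. No member window held the TATA letters TATAAA, found in 13.6% of all windows, or the DR5 element, a pair of such half-sites in the same direction 5 bases apart (0.00913% of all windows). A match describes letters in this window and not a bound site.

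Lox and Loxl1 encode the enzymes that oxidise lysines of tropoelastin so that they crosslink. Lox was at 489.9, 462, 494 and 516 CPM in B6 controls and at 218, 231, 235 and 226 CPM in A/J controls. Under BMS493 it was at 503, 608, 458 and 472 CPM in B6 and at 204, 274, 216 and 231 CPM in A/J. Every B6 library was higher than every A/J library. The A/J mean was 0.463 times that of B6 among controls (log2 difference -1.11, SE 0.084, adjusted p = 3.74e-10) and 0.453 times under BMS493 (-1.14, SE 0.084, adjusted p = 2.28e-10). Of all tested genes, 0.689% had a smaller p among controls. On leaving out any library the log2 difference stayed between -1.14 and -1.08 among controls and between -1.23 and -1.05 under BMS493.

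Loxl1 had levels of 54.5, 55.6, 55.4 and 52.8 CPM in B6 controls and 45, 46.9, 48.1 and 32.6 CPM in A/J controls, with no overlap. The A/J mean was 0.792 times that of B6 (log2 difference -0.34, SE 0.12), a difference that was not called among controls (adjusted p = 0.0562). It was called with DESeq2 (adjusted p = 0.0389), without a filter (0.000559), with a library set term (0.0459), with a replicate block and with only the libraries compared (0.0107). It was also called on leaving out B6 BMS493 replicate 1 (0.0282) or 2 (0.0113) or A/J control replicate 3 (0.044). On leaving out A/J control replicate 4, the lowest library, the log2 difference was -0.22 (adjusted p = 0.183). Under BMS493 the log2 difference was -0.40 (SE 0.12, adjusted p = 0.0197) and the groups overlapped through B6 replicate 1 at 46.5 CPM. That call was lost without B6 BMS493 replicate 2 (log2 difference -0.26, adjusted p = 0.0908) or 3 (-0.41, 0.0615), or without A/J BMS493 replicate 3 (-0.38, 0.0582) or 4 (-0.39, 0.059). The second stranded column lost it as well (adjusted p = 0.0933). Over both treatments Loxl1 was 0.774 times as high in A/J (adjusted p = 0.00181).

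**Figure D3:**
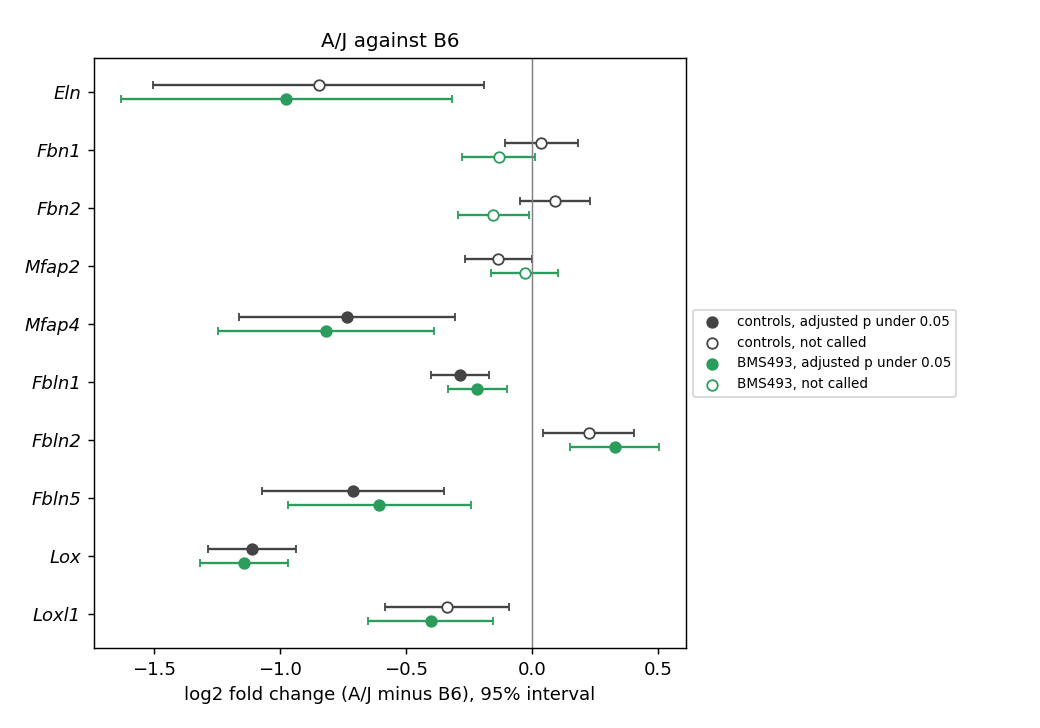
Log2 fold change of each gene, A/J minus B6 (horizontal axis), among controls and under BMS493, with 95% intervals and filled points where the adjusted p was under 0.05. The Lox points lie at -1.11 and -1.14, and Fbln2 is the one gene whose points lie to the right of 0 in both treatments.

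Markers of other cell types also differed between the strains, and their part in the differences above was not tested. Across all tested genes, 9.84% were called lower and 7.04% higher in A/J among controls, and 12% and 7.93% under BMS493. Endothelial markers were called lower in A/J for 4 of 6 among controls and 6 of 6 under BMS493, with summed levels of 1165 to 1271 CPM in B6 controls and 836 to 1014 CPM in A/J controls. Of 7 mesenchyme markers, Col1a1, Col3a1 and Tcf21 were called lower in A/J controls, while 3 of the 7 had higher values that were not called. Col1a1 and Col3a1 summed to 5906 to 6145 CPM in B6 controls and 3165 to 4292 CPM in A/J controls, and the other 5 to 707.5 to 725 CPM in B6 and 708 to 773 CPM in A/J. Of 8 tested smooth muscle markers, Acta2 was called lower and Actg2 higher in A/J controls, with summed levels of 1140 to 1203 CPM in B6 and 926 to 1163 CPM in A/J. All 6 epithelial markers had lower values in A/J in both treatments, with 2 called among controls and 3 under BMS493. Their summed levels were 1088 to 1193 CPM in B6 controls and 724 to 879.9 CPM in A/J controls, and Sftpc, the surfactant protein C gene, was at 248 to 341 CPM in B6 controls and 53.5 to 101 CPM in A/J controls. Mesothelium markers went both ways, with 2 of 6 called higher and 1 lower in A/J controls, and 3 higher and 2 lower under BMS493, and their summed levels were 92.2 to 98.7 CPM in B6 controls and 100.3 to 118 CPM in A/J controls. Heart muscle markers were present at low levels, 76.2 to 90.4 CPM summed over 4 tested markers in B6 controls and 41.5 to 76.2 CPM in A/J controls, and 1 of the 4 (Tnnt2) was called lower in A/J controls. Actc1 made up most of that sum, with 638 to 1507 counts per library, Myh6 had 2 to 354 counts, and Nppa had 0 counts in all 16 libraries. Of the skeletal muscle markers, no library had more than 13 counts of Myog, Myh3 or Ckm, and Actn2 had 5 to 34 counts. Multimapping fragments made up 3.16% ± 0.156 of the fragments in B6 and 3.9% ± 0.134 in A/J (SD, n = 8), and the part of mapping A/J reads to a reference genome in these strain differences was not tested.

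BMS493 called none of the 10 genes in B6, in A/J or in the mean of both strains by edgeR's quasi-likelihood test. Of all genes, 0.423% were called in B6 (0.0752% higher and 0.347% lower), 0.486% in A/J (0.0637% higher and 0.423% lower) and 1.37% in the mean of both (0.278% higher and 1.09% lower). At an unadjusted p under 0.05 there was 1 gene in B6 (Fbn2), 1 in A/J (Fbln2) and 3 in the mean of both (Fbn2, Fbln2 and Mfap4), where the shares of all genes were 9.1%, 6.23% and 10.8%. DESeq2 called 1 of the 10 genes in B6 and none of them in the other 2 comparisons. Its counts over all genes are given in the last section. The groups did not overlap for Fbn2 and Mfap2 in B6 (4.71% of all genes) and overlapped for all 10 in A/J (4.87% of all genes did not). The control libraries of a strain serve both its treatment comparison and the strain comparison, so these are not independent.

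Fbn2 had the smallest p of the 10 genes for treatment in B6 and in the mean of both strains, and Fbln2 had it in A/J. It stood at 1054, 987, 1108 and 997 CPM in B6 controls and at 1337, 1175, 1259 and 1243 CPM in B6 BMS493. All 4 treated libraries were higher than all 4 controls, by 1.21-fold on average (log2 difference 0.27, 95% interval 0.13 to 0.41), and the adjusted p was 0.0795. In A/J the levels were 1183, 1162, 1012 and 1063 CPM in controls and 1065, 1200, 1012 and 1233 CPM under BMS493 (log2 difference 0.029, 95% interval -0.11 to 0.17). The difference between the strains in this effect was -0.24 (SE 0.096, unadjusted p = 0.0173, adjusted p = 0.999). In B6 the gene was called with DESeq2 (adjusted p = 0.0186), without a filter on low counts (0.00175) and with the first stranded count column (0.049). Leaving out 1 library gave adjusted p-values from 0.0634 to 0.318.

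Mfap2 in B6 was at 177 to 198 CPM under BMS493 and at 199.9 to 214 CPM in controls, without overlap, and was not called (log2 difference -0.13, 95% interval -0.26 to 0.0063, adjusted p = 0.562). Fbln2 in A/J was 1.16 times as high under BMS493, with an interval from 0.039 to 0.39 and an adjusted p of 0.583. Mfap4 had log2 differences of 0.39 in B6 and 0.31 in A/J, and 0.35 in the mean of both (95% interval 0.045 to 0.65, adjusted p = 0.371). Without B6 BMS493 replicate 2 the Mfap4 value was 0.11 in B6 and 0.21 in the mean of both. All 8 tested smooth muscle markers had lower values under BMS493 over both strains, and 3 were called lower, beside 1.09% of all genes. The part of these markers in the values above was not tested.

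The treatment effect on Eln was the least certain. The log2 difference was 0.33 in B6 with a 95% interval from -0.32 to 0.98, and 0.20 in A/J with an interval from -0.45 to 0.85. Without B6 BMS493 replicate 3 the B6 value was 0.028, and without A/J control replicate 4 the A/J value was 0.012. Lox had values of 0.057 (interval -0.11 to 0.23) in B6 and 0.025 (-0.15 to 0.20) in A/J, so a change of the size of its strain difference lay outside both intervals. For Fbln1, Fbln5, Loxl1 and Fbn1 the values lay between -0.089 and 0.13 in B6 and between -0.041 and 0.015 in A/J.

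**Figure D4:**
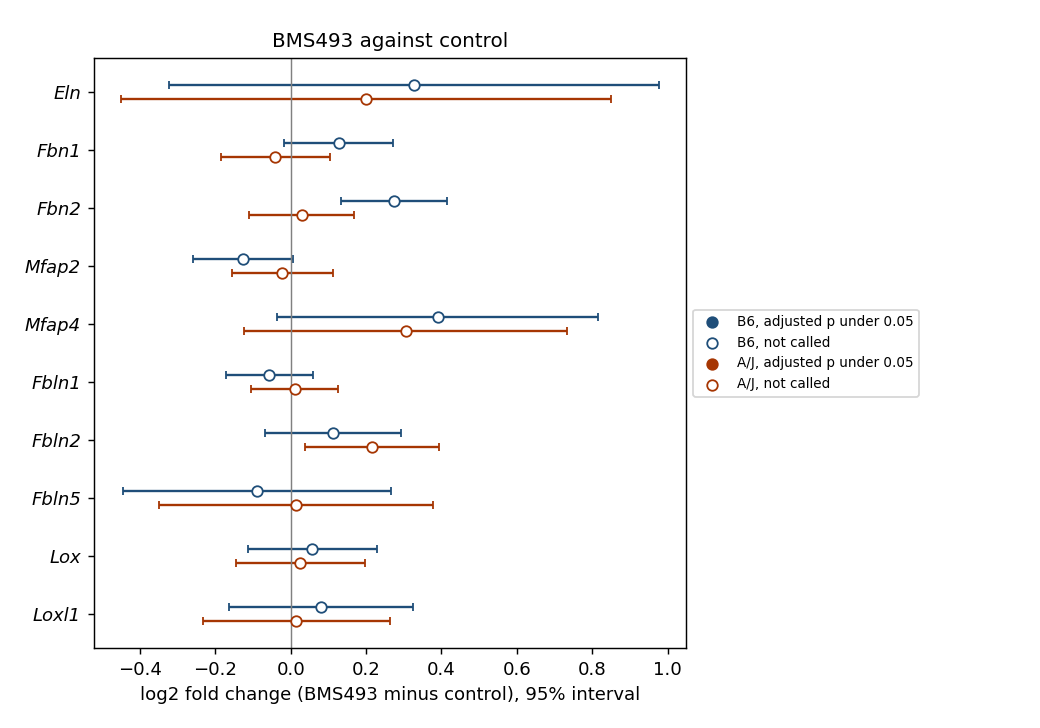
Log2 fold change of each gene, BMS493 minus control (horizontal axis), in B6 and in A/J, with 95% intervals and filled points where the adjusted p was under 0.05. No point is filled, the Fbn2 interval in B6 lies between 0.13 and 0.41, and the Eln intervals are the widest in both strains.

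None of the 10 genes was called for a difference in treatment effect between the strains (edgeR adjusted p = 0.999 for each, 0.00579% of all genes called, 1 of the 10 and 3.68% of all genes at an unadjusted p under 0.05, none of the 10 by DESeq2).

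Other genes of the pathway were taken from lists. Of 25 further elastic fibre and microfibril genes, all of them tested, 10 were called lower and 1 higher in A/J among controls, and 8 lower and 2 higher under BMS493. Of all genes, 9.84% were called lower and 7.04% higher among controls, and 12% and 7.93% under BMS493. The median log2 difference of the 25 genes was -0.24 among controls and -0.23 under BMS493, against 0.0081 and 0.0032 over all genes. Adamts10, which encodes a protein that binds fibrillin-1, went from 200.5 ± 18.8 CPM in B6 controls to 139 ± 4.86 CPM in A/J controls (log2 difference -0.53, SE 0.071, adjusted p = 4.19e-06). Adamtsl2, which encodes a fibrillin-binding glycoprotein, went from 30.6 ± 2.66 to 13.6 ± 1.58 CPM (-1.17, SE 0.17, adjusted p = 4.95e-05). Efemp2, the gene of fibulin-4, which brings Lox to tropoelastin, went from 129 ± 4.24 to 105 ± 9.07 CPM (-0.30, SE 0.059, adjusted p = 0.000754). Dcn, the gene of the collagen-binding proteoglycan decorin, went from 94.8 ± 3.07 to 61.6 ± 3.46 CPM (-0.62, SE 0.087, adjusted p = 9.51e-06). Adamtsl3, named outside the rule as the 1 gene called higher among controls, was at 5.34 CPM in A/J and 2.78 CPM in B6 (log2 difference 0.94, adjusted p = 0.00966). Under BMS493 Ltbp2, a fibulin-5 partner, was at 14.7 ± 4.26 CPM in A/J and 59.1 ± 30.6 CPM in B6 (adjusted p = 0.00112). Mfap1a, named outside the rule after its value was seen, was called lower among controls (29.6 to 23.5 CPM), and its product is known as a splicing factor.

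For treatment, the same 25 genes gave 1 call in B6, a lower one, and none in A/J, beside 0.423% and 0.486% of all genes called in either direction. Dcn fell in B6 from 94.8 ± 3.07 to 54.5 ± 7.3 CPM (log2 difference -0.80, SE 0.088, adjusted p = 2.46e-05), and in A/J it was at 61.6 ± 3.46 and 51.4 ± 6.98 CPM (-0.26, adjusted p = 0.36). The difference between those effects was 0.54 (SE 0.12, adjusted p = 0.803). Over both strains 2 of the 25, Dcn and Emilin3, were called lower, beside 1.09% of all genes, Emilin3 with a log2 difference of -0.36 (SE 0.080, adjusted p = 0.025).

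Of 12 genes for crosslinking, copper supply and enzyme activation, 11 were tested. In A/J controls 3 were called lower (Loxl4, Pcolce2 and Postn) and 1 higher, and the median log2 difference of the 11 was -0.19 (all genes 9.84% lower, 7.04% higher, median 0.0081). The higher one was Atp7a, the copper pump that loads lysyl oxidases, at 74.2 ± 7.67 CPM in A/J and 57.2 ± 5.8 CPM in B6 (log2 difference 0.38, SE 0.086, adjusted p = 0.00287). Postn, the gene of periostin, was at 47.1 ± 7.54 CPM in A/J and 75.2 ± 2.72 CPM in B6 (-0.67, SE 0.18, adjusted p = 0.0198). Loxl2, a relative of Lox, was the 1 of these 11 genes called lower under BMS493 in A/J (0.423% of all genes), where it went from 111 ± 2.78 to 89.8 ± 3.3 CPM (-0.30, SE 0.067, adjusted p = 0.0306). In B6 Loxl2 was at 106 ± 2.78 and 88.0 ± 10.7 CPM (-0.27, adjusted p = 0.0837), and over both strains the call was made (-0.29, SE 0.048, adjusted p = 0.000841).

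Of 14 elastin-degrading proteases and inhibitors, 10 were tested, and Mmp7, Mmp12, Elane and Serpina1a were not. Timp3, the gene of a matrix-bound metalloproteinase inhibitor, was the 1 gene called higher in A/J controls, at 129.9 ± 8.96 CPM against 92.8 ± 2.45 CPM (log2 difference 0.49, SE 0.092, adjusted p = 0.000538). Mmp14 (289 against 349 CPM, adjusted p = 0.00307) and Ctss, the gene of cathepsin S (5.44 against 8.89 CPM, adjusted p = 0.0111), were the 2 called lower, beside the same shares of all genes. The median log2 difference of the 10 was -0.034 among controls and -0.12 under BMS493. In the latter 1 was called higher and 2 lower, beside 7.93% and 12% of all genes. For treatment, 1 of the 10, Mmp2, was called lower over both strains, beside 1.09% of all genes (log2 difference -0.23, SE 0.052, adjusted p = 0.0234).

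Some of the genes varied together among libraries of 1 group. Group means were subtracted from log2 CPM, and Pearson's r was taken over the 16 libraries as a description. The libraries share depth and dissection, and no p is given. Fbln5 and Loxl1 had the highest r of all pairs, 0.90, and 0.81 without the 2 libraries in which Fbln5 lay farthest from its group mean. Eln had r of 0.81 with Loxl1, 0.74 with Mfap2, 0.72 with Fbln5, 0.66 with Fbn1, 0.65 with Fbln1, 0.35 with Mfap4, 0.31 with Fbln2, 0.15 with Lox and -0.05 with Fbn2. Without the 2 libraries in which Eln lay farthest from its group mean, r was 0.91 with Loxl1, 0.77 with Mfap2, 0.79 with Fbln5, 0.40 with Fbn1, 0.59 with Fbln1, 0.75 with Mfap4, 0.12 with Fbln2, 0.45 with Lox and 0.11 with Fbn2. Fbln2 and Lox had the lowest r, -0.65, and -0.46 without the 2 libraries farthest in Fbln2.

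**Figure D5:**
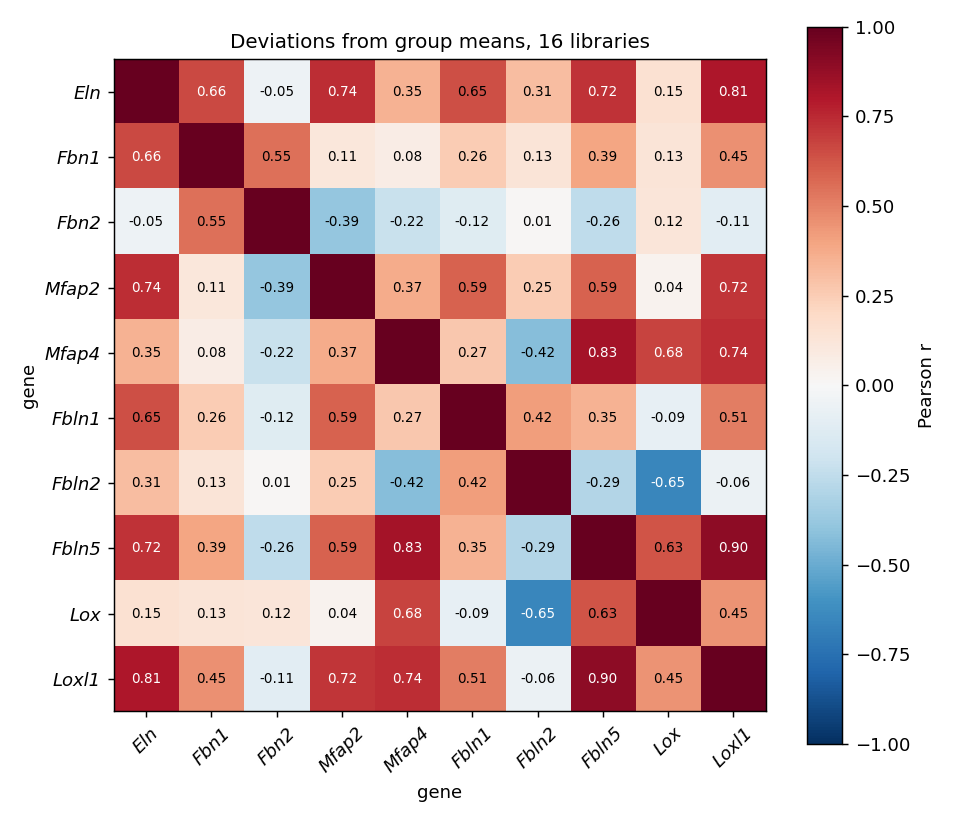
Pearson's r between each pair of the 10 genes over 16 libraries after subtracting group means (colour scale from -1 to 1, values in the cells). Pairs among Eln, Fbln5, Mfap2 and Loxl1 have r from 0.59 to 0.90. Mfap4 has r of 0.83 with Fbln5 and 0.74 with Loxl1, and the Fbln2 and Lox pair is the lowest at -0.65.

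The genes whose pattern was most like that of Eln by the same measure, among 11522 genes with a mean of at least 5 CPM, were Ltbp4 (r = 0.97), Ltbp3 (0.96), Lamb2 (0.96), Mfge8 (0.96) and Matn4 (0.95). Without B6 BMS493 replicates 3 and 1 the r ranged from 0.90 (Matn4) to 0.95 (Ltbp4). Of the other 9 elastic fibre genes, Loxl1 ranked highest, with 2.0% of those genes above it. Of these 5, Ltbp3 (log2 difference -0.45, adjusted p = 0.0157), Mfge8 (-0.51, adjusted p = 8.34e-06) and Matn4 (-0.75, adjusted p = 0.0108) were called lower in A/J controls. Ltbp4 (-0.20, adjusted p = 0.394) and Lamb2 (-0.21, adjusted p = 0.118) were not called among controls. Under BMS493 Lamb2 was called lower in A/J (-0.34, adjusted p = 0.01075) and Ltbp4 was not called (-0.28, adjusted p = 0.185). Eln also varied with the summed markers of most cell types. The r was 0.90 with heart muscle, 0.84 with smooth muscle, 0.79 with endothelium, 0.77 with mesenchyme and 0.76 with epithelium. It was 0.70 with erythroid cells, 0.61 with macrophages, 0.47 with cartilage, -0.80 with mesothelium and 0.88 with Sftpc alone. For skeletal muscle it was 0.63, but only 1 of those 4 markers was tested, Actn2, with 5 to 34 counts per library. These r values were not taken again without the libraries farthest in Eln. Within the mesenchyme list r was 0.77 with Col1a1 and Col3a1 and 0.085 with the other 5 markers. The B6 BMS493 libraries with the most Eln, replicates 3 and 2, had 589.6 and 867.5 CPM of Sftpc, and replicates 1 and 4 had 179 and 288 CPM. The part of cell composition or of the stage of the lungs in the Eln values was not tested.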

How the data were processed

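RNA of 16 fetal mouse lungs was sequenced. Per the submitters' processing notes, the authors used FastQC, cutadapt and STAR with GRCm39; versions and the annotation are not given in the sources used here. The authors deposited raw gene counts, 1 file per library. Lines that name no gene (unmapped, multimapping, no feature, ambiguous) held 23.1% to 28.3% of fragments and were left out. The count column that ignores strand was used, since the first stranded column held 51.0% to 52.0% of the stranded counts. In that column reads over genes on opposite strands cannot be assigned: antisense genes overlap 20.1% of the exon length of Fbn1, 4.63% of Mfap4, 3.3% of Eln and under 1% of Fbn2 and Lox. The stranded columns summed to 1.053 to 1.088 times that column for Lox, 1.028 to 1.054 times for Fbn1, 1.031 to 1.046 times for Eln and at most 1.018 times for the other members.

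Names, exon lengths and chromosomes came from GENCODE M21 (GRCm38), which matched 51884 of 57180 identifiers and 98.9% of counts; no GRCm39 coordinates were used. Counts were filtered with filterByExpr (minimum count 10), which removed 39904 genes, scaled with TMM, and fitted with edgeR 4.0.16 (robust quasi-likelihood, 1 coefficient per group, 16 libraries, 12 residual degrees of freedom) in R 4.3.3 with limma 3.58.1. P-values were adjusted by Benjamini-Hochberg over 17276 genes, and the code was tested on simulated data. Python 3.11.15 with pandas 2.3.3 and matplotlib 3.10.9 assembled and drew the values. DESeq2 1.42.0, other scaling, filters, count columns, a replicate block, a library set term and leaving out each library were alternatives. Libraries of 1 group differed beyond counting error in all 24 pairs.

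The members and lists were chosen with earlier results of these data known. All 10 members are named. From the other lists at most the 4 called genes with the smallest adjusted p per list and comparison are named, besides Adamtsl3, Mfap1a and cell type markers, and with Eln the 5 genes of the most similar pattern. The strain comparison over both treatments was added after the data were seen. Member counts per library ran from 574 (Loxl1) to 34619 (Eln).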

Additional observations from a re-analysis of the deposited data

Results flagged for a closer look

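In 1 of 40 groups of 4 libraries, a member's highest or lowest value lay far from the others. Mfap2 in B6 control replicate 4 was at 214 CPM, and the other 3 libraries of the group were at 199.9 to 202 CPM. The gap was 0.864 of the group's range, above the 95% limit of Dixon's test for 4 samples. Chance flags about 1 in 20 such groups.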

How the results depend on the processing

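The counts of members called changed with some settings, and the causes were not tested unless fewer libraries or another set of genes tested gives them. For BMS493 in B6, 1 member (Fbn2) was called with DESeq2, without a filter and with the first stranded column, and 1 over both strains without a filter. Between strains, 7 were called among controls when only the libraries compared were fitted (3 to 6 on leaving out a library), and 4 to 7 under BMS493 on leaving out a library. All genes called between strains then ran from 2296 to 3474 among controls and from 2572 to 3904 under BMS493. In the other alternative fits, the replicate block among them, they ran from 2327 to 3707 and from 2346 to 3765. The strain call under BMS493 was lost without a filter for Eln (adjusted p = 0.0706) and Fbln5 (0.0645), with only the libraries compared for Eln (0.105) and Fbln5 (0.0708), and with the second stranded column for Loxl1 (0.0933). All genes called for BMS493 in B6 were 162 with DESeq2, 260 without a filter, 27 with only the libraries compared and 27 to 201 on leaving out a library. In A/J they were 158, 178, 133 and 52 to 121. Over both strains they were 396 with DESeq2, 487 without a filter and 165 to 371 on leaving out a library, and for the difference of effects 2, 12 and 1 to 2. Reversed directions occurred in uncalled treatment values alone. With the first stranded column the A/J values were -0.0015 for Fbln1, -0.050 for Fbln5 and -0.057 for Loxl1, and with the second stranded column the difference of effects was 0.017 for Loxl1. On leaving out a library, values in B6 ran from -0.33 to 0.048 for Fbln5, -0.037 to 0.10 for Lox and -0.065 to 0.17 for Loxl1. In A/J they ran from -0.017 to 0.078 for Fbn2, -0.031 to 0.044 for Fbln1, -0.067 to 0.062 for Fbln5, -0.088 to 0.029 for Mfap2, -0.068 to 0.081 for Lox and -0.098 to 0.069 for Loxl1. Over both strains they ran from -0.16 to 0.031 for Fbln5, -0.0065 to 0.069 for Lox and -0.026 to 0.094 for Loxl1. Differences of effects ran from -0.33 to 0.17 for Eln, -0.034 to 0.35 for Fbln5, -0.21 to 0.19 for Mfap4, -0.12 to 0.061 for Lox and -0.18 to 0.079 for Loxl1. The deviations of same-numbered libraries had correlations of -0.147 to 0.148, with 3 of 24 pairs over 0.1. Differently numbered pairs were not compared and the labels do not explain the numbers. These values therefore cannot decide whether replicate numbers pair the samples. With the replicate block 5 members were called between strains among controls (Loxl1 gained, -0.35, adjusted p = 0.0147) and 6 under BMS493 (Eln lost, -0.91, adjusted p = 0.0581), and no other member call changed. The members with the fewest counts, Fbln2, Loxl1 and Fbln5, had 574 counts or more in every library.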
